A study of Homo sapiens with 12 samples.

Results

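The 9 genes described here encode GTPase-activating proteins of the small GTPase Ras: RASA1, RASA2, RASA3, RASA4, RASA4B, RASAL1, RASAL2, RASAL3 and NF1. They were taken by name from 59490 gene names that occur once in the deposited expression tables, and all 9 were present. The identifiers beside these names in the parental table belong to other genes, and whether name or identifier is right was not tested. RASA4 had been singled out from the measured response of parental cells to decitabine, so its values in that comparison are given as a description with no test. RNA was sequenced from OCI-LY1, a human diffuse large B-cell lymphoma (DLBCL) line, and from OCI-LY1R, which was derived from it by growth in increasing venetoclax, an inhibitor of the survival protein BCL2, up to 1 µM. Parental vehicle libraries came from OCI-LY1 cells given DMSO, and parental decitabine libraries from OCI-LY1 cells given 1 µM decitabine. Resistant vehicle and resistant decitabine libraries came from OCI-LY1R cells with the same additions. RNA was isolated after 3 days in every group. Decitabine is a deoxycytidine analogue that is built into DNA and traps DNA methyltransferases. Each of the 4 groups held 3 libraries, all 12 from 1 line and its derivative, and the labels do not say whether OCI-LY1R is a clone or a mixed population.

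Ras proteins switch between a GTP-bound form, which engages RAF kinases and the MEK and ERK kinases downstream of them, and a GDP-bound form, which does not. Exchange factors such as SOS and RASGRP load Ras with GTP, and GTPase-activating proteins speed the hydrolysis of that GTP and so turn Ras off. RASA4, also called CAPRI, and RASAL1 respond to calcium through their C2 domains, RASA1 is recruited to phosphorylated receptors through its SH2 domains, and NF1 encodes neurofibromin, a tumour suppressor lost in neurofibromatosis. In B cells, signals from the antigen receptor reach Ras mainly through RASGRP exchange factors.

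Positions are from GENCODE 29 on GRCh38, the build named hg38 in the submitters' processing notes. RASA4 lies at chr7:102573807-102616757 and RASA4B at chr7:102482445-102517781, both on the minus strand. A pair of annotated pseudogene copies was also followed, RASA4DP at chr7:102681836-102690469 and RASA4CP at chr7:44026951-44041892, both on the minus strand. The RASA4 transcript aligned here has 5605 bases in 21 exons, of which 2409 are coding. Aligned with a RASA4B transcript over 2928 bases it differed at 5, an identity of 99.83%. Over the 1398 bases of the RASA4CP transcript it differed at 9, and over the 1199 bases of the RASA4DP transcript at 5. The stretch of 120 coding bases below shows how little separates the copies. It lies in exon 18 of that RASA4 transcript, at chr7:102587649-102587768 on the minus strand, and capitals mark the 4 positions at which any copy differs.
RASA4: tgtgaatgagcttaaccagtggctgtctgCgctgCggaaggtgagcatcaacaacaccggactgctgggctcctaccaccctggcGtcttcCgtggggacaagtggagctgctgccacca
RASA4B: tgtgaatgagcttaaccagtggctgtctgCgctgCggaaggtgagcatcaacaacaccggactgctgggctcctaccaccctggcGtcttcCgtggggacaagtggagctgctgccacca
RASA4CP: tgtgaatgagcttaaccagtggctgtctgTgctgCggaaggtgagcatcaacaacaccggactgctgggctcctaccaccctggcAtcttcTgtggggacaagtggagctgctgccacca
RASA4DP: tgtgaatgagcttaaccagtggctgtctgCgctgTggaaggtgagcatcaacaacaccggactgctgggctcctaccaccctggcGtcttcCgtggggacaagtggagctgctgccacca
In this window RASA4B has 0 bases unlike RASA4, RASA4DP has 1 and RASA4CP has 3. Across all annotated transcripts of RASA4, 51% of the distinct runs of 100 bases also occur in another copy, against 79.6% for RASA4B, 34% for RASA4CP and 56% for RASA4DP. A read that falls in a shared run can be credited to either copy, so the division of signal among the copies is uncertain, and their sums are given beside the single genes.

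Values are TPM, a transcript abundance per length that sums to 1000000 in each library, while sequencing depth is unknown. They are set side by side between genes only as listed levels, under the strand limit given below. Resistant libraries are named a, b and c within a group, because their columns show no sample. Parental decitabine replicate 3 was unlike the rest: protein-coding features held 89.4% of its TPM against 26.6% to 32.2% in the other 11, and features annotated as antisense held 0.298% against 34.9% to 48.7%. It was left out of the tests, and its values are given apart. The handling of strand by the authors is not stated in the sources, so whether a gene's value in the 11 libraries counts reads of its own strand or of the opposite one is unknown, and every level below carries that limit. Of 12 B-cell markers, 6 were at 1 TPM or more in all 11 other libraries and MS4A1 was listed at 0 in the 5 parental libraries among them, whereas all 12 reached 1 TPM in replicate 3. Of 7 T-cell markers, 5 (CD3D, CD3E, CD2, CD7 and TRAC) were at 0 in all 11, with sums of 0 to 1.09 TPM. Sums of 6 myeloid markers were 0 to 4.78 TPM, with CD14, ITGAM and MPO at 0 throughout the 11. Sums of 8 fibroblast and epithelial markers were 0 to 2.98 TPM outside the resistant decitabine group and 1.87 to 23.4 TPM within it, with COL1A1, COL1A2 and KRT18 at 0 in all 11; their part in the results was not tested. With decitabine 39 of 151 calls were lower in parental cells and 65 of 308 in resistant cells. With median-ratio scaling the split was 85 lower of 189 and 121 lower of 341, and with quantile scaling 47 of 122 and 65 of 196. Between the lines under vehicle 83 of 217 calls were lower in resistant cells, 105 of 191 with median-ratio and 98 of 184 with quantile scaling. The labels do not state that replicates were separate cultures, so each p-value reflects only how far the libraries of a group spread, and that spread may be technical.

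RASA4 had the highest listed level of the 9 genes in untreated cells of both lines and far lower with decitabine in parental cells. The 3 parental vehicle libraries held 152, 129 and 134 TPM, and parental decitabine replicates 1 and 2 held 7.11 and 8.19 TPM. The groups did not overlap, and replicate 3, at 18.5 TPM, also lay below every vehicle library. The difference was -4.01 on the scale of log2(TPM + 1) (SE 0.15), and -3.62 (SE 0.71) with replicate 3 included. This contrast is the one RASA4 was chosen from, so nothing is read from its size. Over all 8122 features tested 1.86% were called, 0.48% were called lower, and 11.6% had decitabine replicates 1 and 2 wholly below vehicle. The sum of the 12 B-cell markers was also lower, at 1257 to 2013 TPM with vehicle and 655 and 884 TPM with decitabine, and its part in the result was not tested. In bulk RNA, fewer cells with a transcript and less transcript per cell cannot be told apart.

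RASA4B, the nearly identical neighbour, moved in the same direction by a smaller amount. In parental vehicle libraries it held 28.1, 28.7 and 31.6 TPM. With decitabine it held 7.55 and 8.35 TPM in replicates 1 and 2, and 16.8 TPM in replicate 3. All 3 decitabine libraries lay below all 3 vehicle libraries. The difference was -1.77 on the log2(TPM + 1) scale (SE 0.16), and -1.44 (SE 0.68) with replicate 3. The pair together held 179.9, 157 and 165 TPM with vehicle and 14.7 and 16.5 TPM with decitabine, with 35.3 TPM in replicate 3, so their summed level was also lower by a log2 difference of -3.34 (SE 0.13).

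The pseudogene copies were lower as well. RASA4CP held 106, 108 and 118 TPM with vehicle and 49.6 and 44.3 TPM with decitabine, a log2 difference of -1.22 (SE 0.12). RASA4DP held 31.5, 27.9 and 31.5 TPM with vehicle and 9.22 and 11.4 TPM with decitabine, a difference of -1.47 (SE 0.18). In replicate 3 they were at 15.9 and 8.41 TPM, under every vehicle library. Summed over all 4 copies, the locus family held 318, 294 and 315 TPM with vehicle, 73.5 and 72.3 TPM with decitabine, and 59.6 TPM in replicate 3, a log2 difference of -2.07 (SE 0.09) without that replicate; this sum over 4 copies was added after the data were seen. Features with the strand opposite to a copy were recorded too. No annotated exon lies opposite the exons of RASA4, RASA4B or RASA4DP, whereas 15.8% of the exon bases of RASA4CP lie opposite LINC00957, which held 53.2 to 55.1 TPM with vehicle and 35.0 and 33.1 TPM with decitabine. On the strand of RASA4, AC105052.1 shares 2595 exon bases with it and was listed at 0 to 0.154 TPM in the 11 libraries and 2.93 TPM in replicate 3. AC093668.1 shares 417 exon bases with RASA4 and was listed at 0 throughout. On the strand of RASA4B, AC093668.2 shares 53.6% of the exon bases of RASA4B. Its name is not among those that occur once, so it has no value here.

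**Figure D1:**
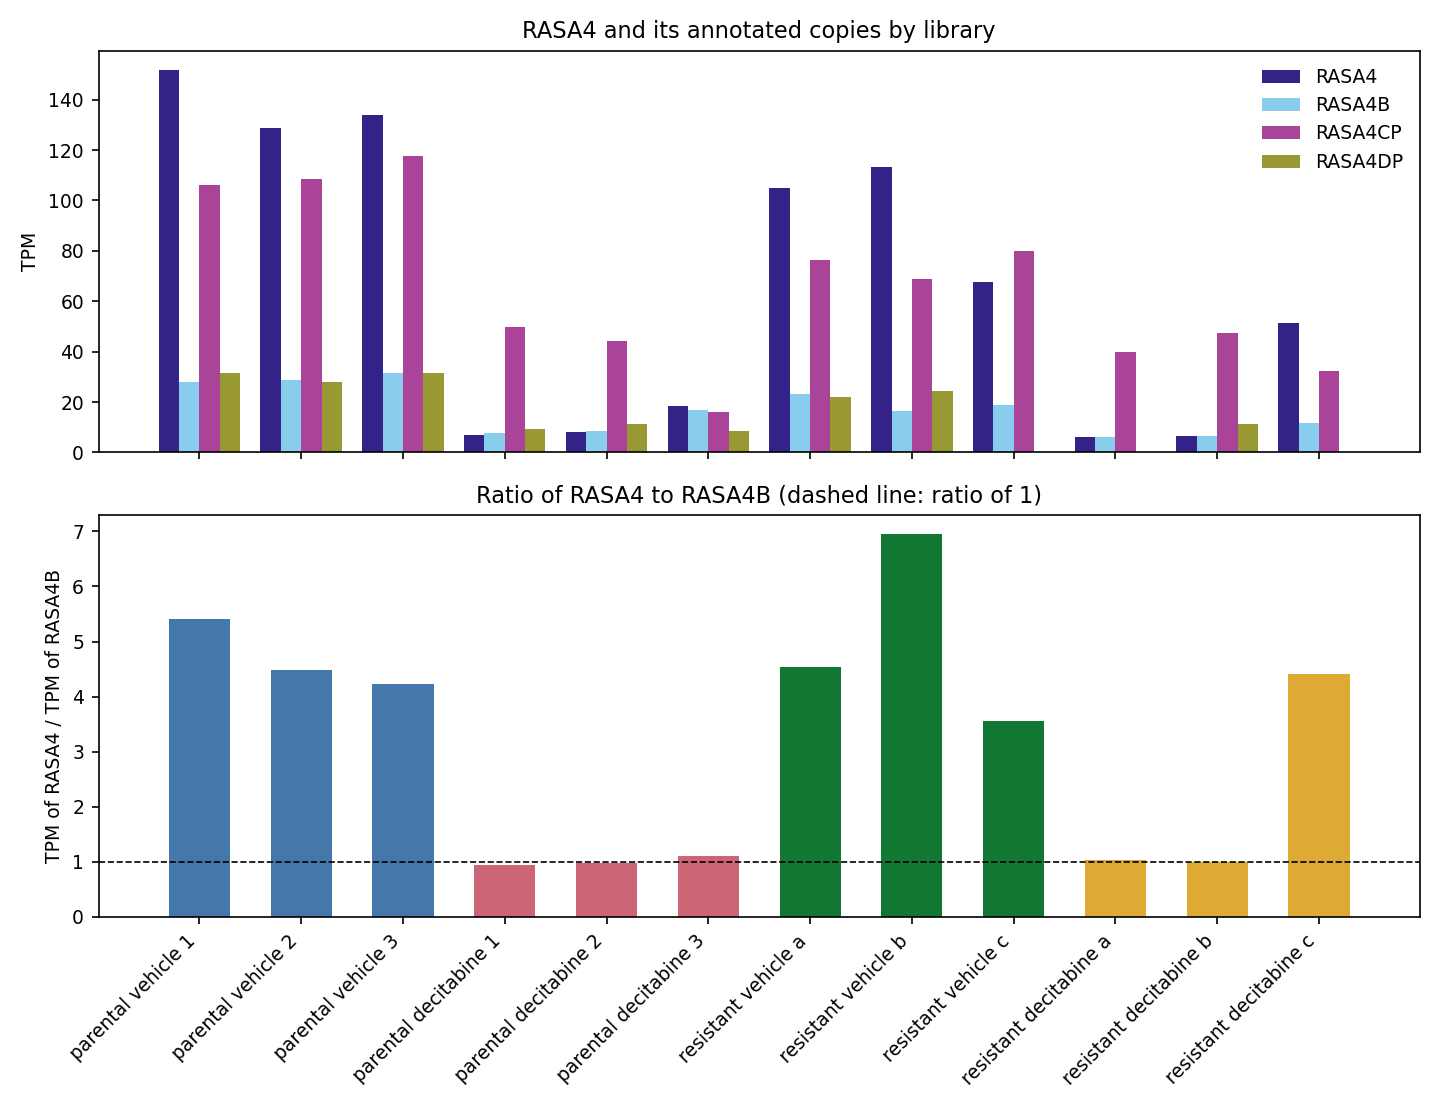
The upper panel plots TPM of RASA4, RASA4B, RASA4CP and RASA4DP in each of the 12 libraries as bars from 0, and the lower panel the ratio of RASA4 to RASA4B, with a dashed line at 1. The ratio lies between 3.55 and 6.95 in the vehicle libraries of both lines and in resistant decitabine c, and between 0.942 and 1.10 in the other 5 decitabine libraries.

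The balance within the pair differed between the treatments. RASA4 was 5.41, 4.48 and 4.23 times as abundant as RASA4B in the parental vehicle libraries, and 0.942, 0.981 and 1.10 times as abundant in parental decitabine replicates 1, 2 and 3. In resistant vehicle libraries the ratio was 4.53, 6.95 and 3.55. Resistant decitabine a and b had ratios of 1.03 and 0.999, and c had 4.41. The pair was thus close to equal in 5 of the 6 decitabine libraries and unequal in the remaining one, as the bars of the ratio by library show. RASA4B against RASA4CP gave 0.264 to 0.269 in parental vehicle libraries, 0.152 and 0.188 in parental decitabine replicates 1 and 2, and 1.05 in replicate 3. These ratios depend on how shared reads were divided, which was not tested.

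In venetoclax-resistant cells the same gene was lower with decitabine in all 3 libraries, but by unequal amounts, and the difference did not pass the threshold. RASA4 was listed at 105, 113 and 67.5 TPM in resistant vehicle a, b and c. Under decitabine it was at 6.18, 6.36 and 51.4 TPM. Libraries a and b reached the level of the treated parental cells, while c lay nearer to the lowest vehicle library, without reaching it. The fitted difference was -2.74 on the log2(TPM + 1) scale (SE 0.82, 95% interval -4.75 to -0.74), with an adjusted p of 0.143 by limma with Benjamini-Hochberg adjustment over 8579 features. Without library c it was -3.69 (SE 0.28, limma adjusted p = 0.0207), and over all alternatives tried the adjusted p ranged from 0.0207 to 0.314. Of the 6 genes of the group that could be tested here, limma called 0, against 3.59% of all features. An unadjusted p under 0.05 was found for 2 of them (RASA4 and RASA4B), against 19.8% of all features. The same pair of genes had decitabine libraries wholly below vehicle, against 8.58% of all features.

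RASA4B was listed at 23.2, 16.3 and 19.0 TPM in resistant vehicle a, b and c and at 6.01, 6.36 and 11.7 TPM under decitabine. Library c was again the highest of its group, below all vehicle libraries. The difference was -1.23 (SE 0.31, 95% interval -1.99 to -0.47, limma adjusted p = 0.101). The summed level of the pair was 128, 129.7 and 86.5 TPM with vehicle and 12.2, 12.7 and 63.0 TPM with decitabine, a log2 difference of -2.33 (SE 0.65, limma adjusted p = 0.127).

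RASA4CP held 76.2, 68.8 and 79.9 TPM with vehicle and 39.9, 47.4 and 32.2 TPM with decitabine in resistant cells. Here c was the lowest of the treated libraries, unlike its place for RASA4. The difference was -0.91 (SE 0.19, 95% interval -1.37 to -0.45, limma adjusted p = 0.063, and 0.0437 with median-ratio scaling). RASA4DP was listed at 21.8, 24.3 and 0 TPM with vehicle and at 0, 11.2 and 0 TPM with decitabine, so the groups overlapped (log2 difference -1.85, SE 1.62, limma adjusted p = 0.559). Summed over the 4 copies, resistant cells held 226, 223 and 166 TPM with vehicle and 52.1, 71.4 and 95.2 TPM with decitabine. That sum was lower by a log2 difference of -1.51 (SE 0.26, limma adjusted p = 0.0419), and this sum was the one added after the data were seen.

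Library c was close to a and b in summaries over the features called in parental cells. Such summaries do not compare single features, and whether c differed from a and b was not tested. Of 147 features called in parental cells, the copies of RASA4 left out, 78.2% lay on the parental side of the resistant vehicle mean in library c, against 77.6% in a and 76.2% in b. The median log2 difference in the parental direction was 1.03 in c, 0.94 in a and 0.90 in b. Protein-coding features held 32.0% of the TPM in c and 30.9% and 32.2% in a and b.

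**Figure D2:**
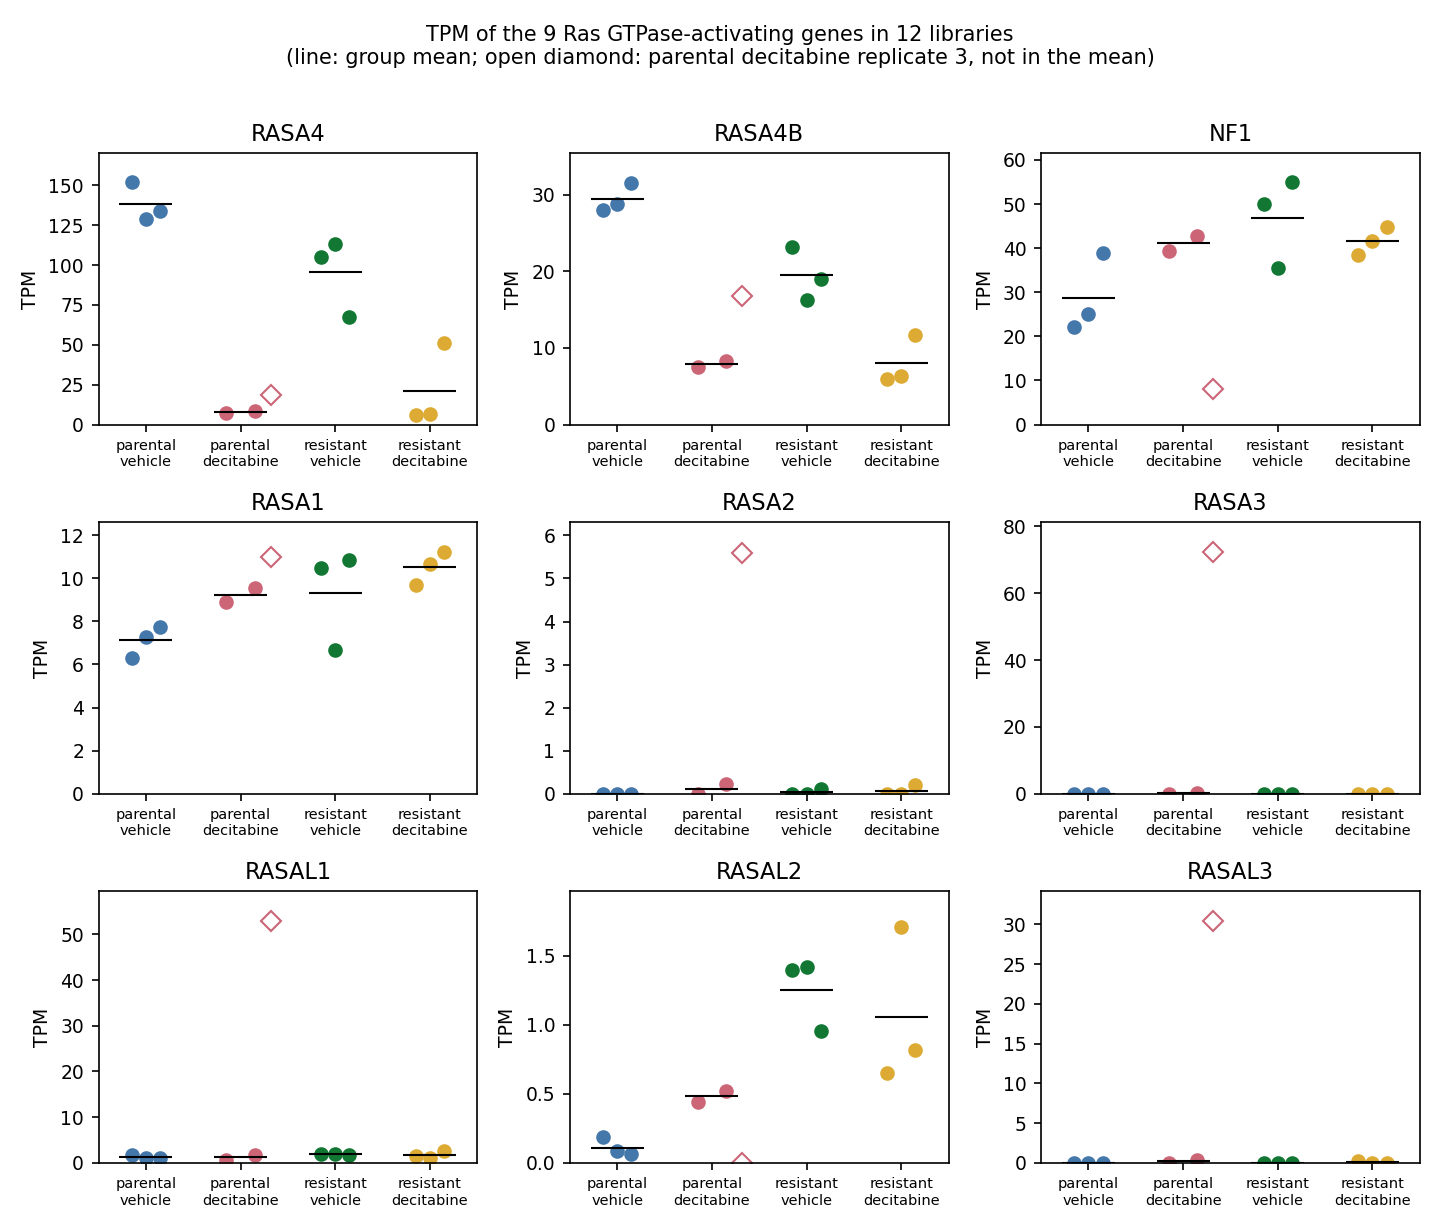
Each panel plots the TPM of 1 of the 9 genes in the 4 groups, 1 filled point a library, with a line at the group mean and an open diamond for parental decitabine replicate 3, which is not in the mean; the axes start at 0 and differ between panels. RASA4 lies at 67.5 to 152 TPM in vehicle libraries and at 6.18 to 51.4 TPM in decitabine libraries, while RASA2, RASA3 and RASAL3 lie below 0.4 TPM in every library but replicate 3.

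NF1, the gene of neurofibromin (chr17:31094927-31382116, plus strand), was the most abundant member apart from the RASA4 pair in the 11 libraries. It was listed at 22.2, 25.2 and 38.9 TPM in parental vehicle libraries and at 39.4 and 42.9 TPM in parental decitabine replicates 1 and 2, a log2 difference of 0.54 (SE 0.28). The vehicle libraries ranged widely and replicate 3 of them nearly reached the treated pair. Parental decitabine replicate 3 held 7.98 TPM, the lowest of the 12 libraries, and with it included the difference turned to -0.20 (SE 0.86). In resistant cells NF1 was at 50.05, 35.4 and 54.9 TPM with vehicle and at 38.4, 41.6 and 44.9 TPM with decitabine. These groups overlapped, with a log2 difference of -0.14 (SE 0.21, 95% interval -0.66 to 0.37, limma adjusted p = 0.725). EVI2A, EVI2B and OMG lie within NF1 on the opposite strand. EVI2B, which shares 0 exon bases with NF1, reached 173 TPM in parental decitabine replicate 3, where NF1 was lowest, and no more than 0.379 TPM elsewhere. EVI2A was at 16.2 TPM there and 0 to 13.2 TPM elsewhere. OMG, by contrast, was at 0.177 TPM there against 1.38 to 4.33 TPM elsewhere. The antisense feature AC138207.2, which shares 143 exon bases with NF1, was at 0.832 TPM there against 5.97 to 27.8 TPM elsewhere.

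RASA1 (chr5:87267888-87391931, plus strand), which docks on phosphorylated receptors, was listed at 6.32 to 11.2 TPM in the 11 libraries. Parental vehicle libraries held 6.32, 7.29 and 7.73 TPM, and decitabine replicates 1, 2 and 3 held 8.91, 9.55 and 10.97 TPM. All treated libraries lay above all vehicle ones. Without replicate 3 the difference was 0.34 on the log2(TPM + 1) scale (SE 0.21), where the median over all features tested was 0.21. Decitabine replicates 1 and 2 lay wholly above vehicle for 27.9% of features. In resistant cells it was at 10.5, 6.67 and 10.8 TPM with vehicle and at 9.70, 10.6 and 11.2 TPM with decitabine (log2 difference 0.18, SE 0.26, 95% interval -0.45 to 0.81, limma adjusted p = 0.718). That difference turned to -0.10 with quantile scaling, so it has no firm direction. Of its exon bases 14.7% lie opposite CCNH, a cyclin gene listed at 66.1 to 139 TPM in the 11 libraries and 37.8 TPM in replicate 3. In resistant a, b and c CCNH was at 136, 91.2 and 139 TPM with vehicle and at 108, 113 and 82.2 TPM with decitabine. Its part in the values of RASA1 was not tested.

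RASAL1 (chr12:113098819-113136239, minus strand), the other calcium-responsive member, stayed between 0.647 and 2.59 TPM in the 11 libraries. Vehicle libraries held 1.69, 0.986 and 0.978 TPM in parental cells, and decitabine replicates 1 and 2 held 0.647 and 1.77 TPM. Resistant cells held 1.83, 1.98 and 1.67 TPM with vehicle and 1.43, 1.04 and 2.59 TPM with decitabine. Treated and untreated libraries overlapped in both lines, with log2 differences of -0.04 (SE 0.41) in parental cells and -0.11 (SE 0.35, 95% interval -0.98 to 0.75, limma adjusted p = 0.888) in resistant cells. In parental decitabine replicate 3 it stood at 53.0 TPM, and the parental difference was 1.51 (SE 1.38) with that library, 0.34 without decitabine replicate 1 and -0.41 without replicate 2.

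RASAL2 (chr1:178094141-178484147, plus strand) was under 1 TPM in all parental libraries. It was at 0.185, 0.087 and 0.060 TPM with vehicle, at 0.439 and 0.524 TPM with decitabine, and listed at 0 in replicate 3. Resistant vehicle libraries held 1.40, 1.42 and 0.952 TPM, and resistant decitabine libraries 0.649, 1.71 and 0.817 TPM. All 6 resistant libraries thus lay above the 5 other parental ones, as did 3.16% of the 8505 features in the fit of all groups, which RASAL2 was too low to enter. The effect of decitabine in resistant cells was -0.16 on the log2 scale (SE 0.37, 95% interval -1.06 to 0.74, limma adjusted p = 0.837), and in all other comparisons the mean was too low for the test, which required 1 TPM.

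RASA2 (chr3:141487047-141615342, plus strand), RASA3 (chr13:113977783-114132611, minus strand) and RASAL3 (chr19:15451624-15464571, minus strand), which is known mainly from blood cells, were at or near 0 in the 11 libraries. RASA2 was listed at 0 in 8 of the 11 and at no more than 0.235 TPM in the others. RASA3 was at 0 in 10, with 0.283 TPM in parental decitabine replicate 2, and RASAL3 at 0 in 9, with at most 0.394 TPM. In parental decitabine replicate 3 these genes were at 5.59, 72.5 and 30.5 TPM. None of them met the level needed for a test in any comparison. An entry of 0 is read as listed at 0, since its depth is unknown.

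The order of listed levels changed with treatment. In parental vehicle libraries RASA4 stood alone at 138 ± 12.2 TPM (SD, n = 3). RASA4B at 29.5 ± 1.88 TPM and NF1 at 28.7 ± 8.89 TPM overlapped each other, and RASA1 at 7.11 ± 0.726 TPM and RASAL1 at 1.22 ± 0.408 TPM followed without overlap. In parental decitabine replicates 1 and 2 NF1 led at a mean of 41.1 ± 2.46 TPM (SD, n = 2), above RASA1 at 9.23 ± 0.457 TPM, and RASA4B at 7.95 ± 0.566 TPM and RASA4 at 7.65 ± 0.766 TPM overlapped. In resistant vehicle libraries RASA4 led again at 95.3 ± 24.5 TPM (SD, n = 3), then NF1 at 46.8 ± 10.1 TPM, RASA4B at 19.5 ± 3.48 TPM and RASA1 at 9.32 ± 2.30 TPM, with no overlap between neighbours. In resistant decitabine libraries NF1 at 41.6 ± 3.26 TPM, RASA4 at 21.3 ± 26.0 TPM, RASA1 at 10.5 ± 0.763 TPM and RASA4B at 8.01 ± 3.16 TPM each overlapped the next. Library c held the highest value of RASA4 and of RASA4B in this group. Parental decitabine replicate 3 had a different order, with RASA3, RASAL1 and RASAL3 above RASA4, and 8 of the 9 genes at 1 TPM or more, against 5 or 6 by group mean elsewhere.

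The lines were then compared under the same treatment, which asks whether resistant and parental cells differ in their levels. Under vehicle, RASA4 was at 129 to 152 TPM in parental and 67.5 to 113 TPM in resistant cells, a log2 difference of -0.56 (SE 0.22). RASA4B was at 28.1 to 31.6 and 16.3 to 23.2 TPM, a difference of -0.58 (SE 0.18). Both were lower in every resistant library, as were 10.2% of all 7761 features tested. The sum of the B-cell markers was lower too, at 832 to 1058 against 1257 to 2013 TPM, and its part was not tested. For the pair no test is given because the parental libraries served to choose RASA4. RASA4CP was also lower in every resistant library, at 68.8 to 79.9 against 106 to 118 TPM (log2 difference -0.56, SE 0.12, 95% interval -0.85 to -0.27, limma adjusted p = 0.0736, and 0.0426 with median-ratio scaling). RASA4DP differed by -1.91 (SE 1.28, limma adjusted p = 0.473), with resistant vehicle c listed at 0. RASA4CP and RASA4DP share sequence with RASA4, so their tests against parental libraries, here and below, are not independent of the choice of RASA4.

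Among the other members under vehicle, NF1 was at 22.2 to 38.9 TPM in parental and 35.4 to 54.9 TPM in resistant cells, and the ranges overlapped. The log2 difference was 0.70 (SE 0.28, 95% interval 0.01 to 1.39, limma adjusted p = 0.254). RASA1 differed by 0.32 (SE 0.26, limma adjusted p = 0.553) and RASAL1 by 0.37 (SE 0.31, limma adjusted p = 0.576). Of these 3 members limma called 0, against 2.8% of all features, and 1 (NF1) had an unadjusted p under 0.05, against 19.3% of all features.

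Under decitabine, RASA4 was at 7.11 and 8.19 TPM in parental replicates 1 and 2 and at 6.18, 6.36 and 51.4 TPM in resistant cells, a log2 difference of 0.70 (SE 0.99) that turned to -0.25 (SE 0.26) without library c. RASA4B differed by -0.04 (SE 0.36). RASA4DP, listed at 0 in resistant decitabine a and c, differed by -2.29 (SE 1.26, 95% interval -5.54 to 0.97, limma adjusted p = 0.533). NF1 differed by 0.02 (SE 0.16, 95% interval -0.40 to 0.43, limma adjusted p = 0.971), a value whose sign changed with either scaling. RASA1 was higher in all 3 resistant libraries than in the parental pair, as were 19.5% of features, by 0.17 (SE 0.22, limma adjusted p = 0.771), although parental decitabine replicate 3, at 10.97 TPM, lay within the resistant range. RASAL1 differed by 0.29 (SE 0.49, limma adjusted p = 0.835). Of NF1, RASA1 and RASAL1 limma called 0, against 0.831% of the 9029 features, and 0 had an unadjusted p under 0.05, against 12.1%.

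**Figure D3:**
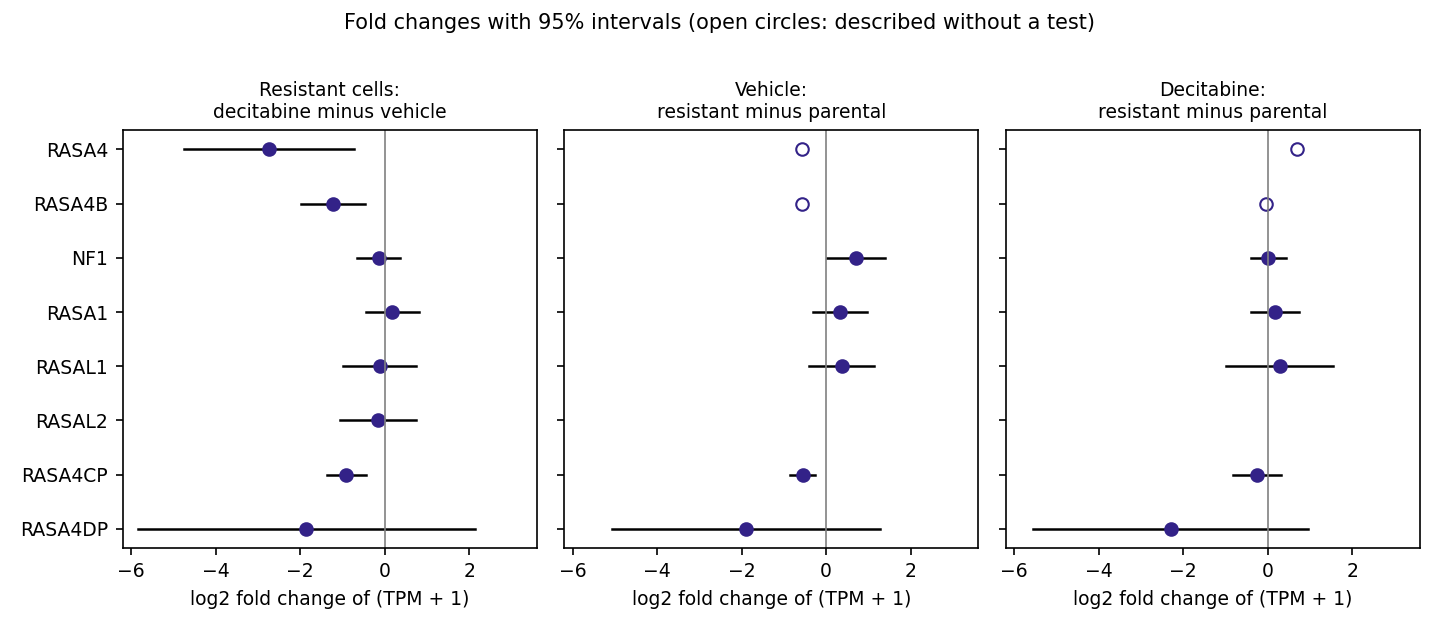
Points are differences of mean log2(TPM + 1) for the tested members and the pseudogene copies, with lines for 95% intervals, in 3 comparisons; open circles are described without a test, and RASAL2 was testable only in the first. In resistant cells the intervals of RASA4, RASA4B and RASA4CP lie below 0, before adjustment over all features, and those of NF1, RASA1, RASAL1 and RASAL2 span 0.

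The response to decitabine was also set against itself between the lines, in a model of the 4 group means. The log2 change of RASA4 was less negative in resistant cells by 1.26 (SE 1.00), and by 0.31 (SE 0.33) without library c. For RASA4B this difference of responses was 0.54 (SE 0.38), and for RASA4CP 0.31 (SE 0.23, 95% interval -0.21 to 0.84, limma adjusted p = 0.686). NF1 had a difference of -0.69 (SE 0.35, 95% interval -1.48 to 0.11, limma adjusted p = 0.544), RASA1 of -0.15 (limma adjusted p = 0.906) and RASAL1 of -0.08 (limma adjusted p = 0.975). Of these 3 genes limma called 0, against 0.364% of 8505 features, and 0 had an unadjusted p under 0.05, against 10.1%. A miss of the threshold does not show that the lines respond alike, and the interval of NF1 reached from -1.48 to 0.11.

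Genes whose level followed that of RASA4 were sought among 3369 features of 5 TPM or more on average, clone-named features left out, by the Pearson correlation of log2(TPM + 1) over the 11 libraries. These libraries share line and treatment, so the values describe a pattern over groups. RASA4B came first at r = 0.953, followed by ABALON at 0.922, the cell-cycle transcription factor gene FOXM1 at 0.912, the homeobox gene NKX6-3 at 0.903 and the transporter gene ABCB9 at 0.896. RASA4CP, at 0.761, ranked 54 and RASA4DP, at 0.385, ranked 457, while RASA1 had r = -0.51 and NF1 -0.32. At the other end stood ITFG2, which encodes a subunit of the KICSTOR complex, at -0.986, then the antisense RNAs MID1IP1-AS1 at -0.928 and THRIL at -0.926.

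ITFG2 and FOXM1 also had unequal resistant decitabine libraries. Both were picked by correlation with RASA4 over the 11 libraries, resistant decitabine c among them, so likeness there is part of the choice. ITFG2 was at 57.3, 60.6 and 64.9 TPM in parental vehicle libraries, 245 and 271 TPM in parental decitabine replicates 1 and 2, and 80.4, 78.2 and 80.7 TPM in resistant vehicle libraries. Resistant decitabine a and b held 250 and 248 TPM, and c held 81.6 TPM, next to the vehicle level. FOXM1 was at 55.4, 53.1 and 54.8 TPM in resistant vehicle libraries and at 25.3, 24.8 and 55.5 TPM in resistant decitabine a, b and c. In parental cells it was at 46.0, 70.2 and 44.5 TPM with vehicle and 22.0 and 27.1 TPM with decitabine. Library c was therefore at the vehicle level for both genes, where RASA4 was between the groups. ITFG2 (chr12:2812622-2859791, plus strand) and FOXM1 (chr12:2857681-2877155, minus strand) overlap at their ends on opposite strands. NKX6-3, by contrast, was at 13.7, 17.1 and 18.0 TPM in resistant decitabine a, b and c against 63.6 to 107 TPM with vehicle, so c did not stand apart there. In parental decitabine replicate 3 ITFG2 was at 25.7 TPM and FOXM1 at 130.5 TPM, both outside the range of the other 11.

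**Figure D4:**
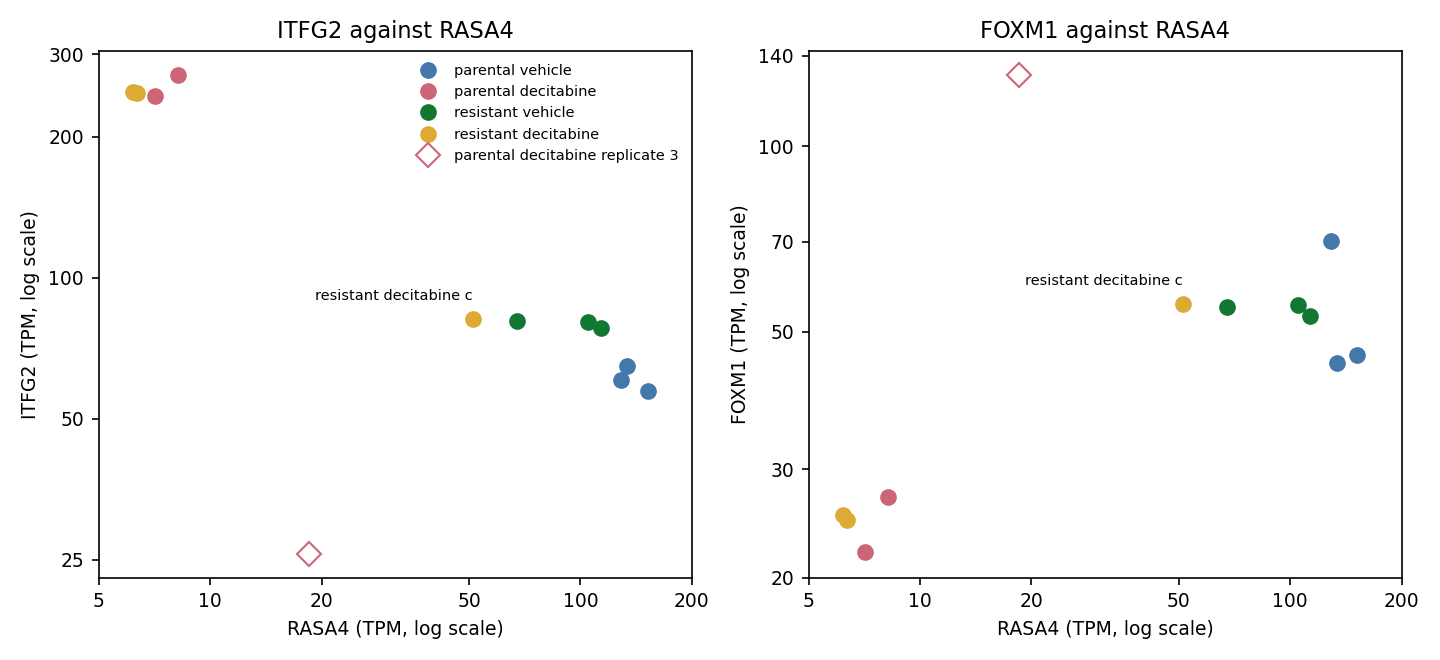
TPM of ITFG2 (left) and FOXM1 (right) against TPM of RASA4, both on log scales, with 1 point a library in the colour of its group and an open diamond for parental decitabine replicate 3. Resistant decitabine c, at 51.4 TPM of RASA4, lies beside the resistant vehicle libraries in both panels, with 81.6 TPM of ITFG2 and 55.5 TPM of FOXM1, away from a and b.

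The rest of the Ras pathway was followed in 6 lists of 65 genes, the RASA4 copies not counted: Ras proteins, exchange factors, other GTPase-activating and GAP-domain genes, adaptors and cofactors, the RAF-MEK-ERK cascade, and genes switched on by ERK. All 65 were in the tables, but only 14 to 16 had a mean of 1 TPM in a given comparison. By limma 0 were called in any of the 5 comparisons, while some had an unadjusted p under 0.05. These were 4 of 14 for decitabine in parental cells (18% of all features), 2 of 15 in resistant cells (19.8%), 5 of 16 for the lines under vehicle (19.3%), 5 of 16 under decitabine (12.1%) and 2 of 14 for the difference of responses (10.1%). The median log2 difference of the tested list genes was 0.22 in parental and 0.09 in resistant cells, against 0.21 for all features in both. Many core genes were at 0 in all 11 libraries and present in parental decitabine replicate 3 alone, such as NRAS at 29.3 TPM, RRAS2 at 45.5 TPM, the exchange factor SOS2 at 15.5 TPM and the scaffold SHOC2 at 15.6 TPM.

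Of the exchange factors, RASGRP1 was at 14.7, 30.8 and 22.0 TPM in resistant vehicle libraries and 7.04, 7.63 and 7.13 TPM with decitabine, groups that did not overlap, as for 8.58% of all features (log2 difference -1.45, SE 0.30, limma adjusted p = 0.0664). Parental libraries held 5.36, 3.88 and 0 TPM with vehicle and 4.24 and 2.92 TPM with decitabine, so resistant vehicle libraries were above all of them. Under vehicle 17.8% of all features were wholly higher in resistant cells (RASGRP1 log2 difference 2.84, SE 0.76, limma adjusted p = 0.127).

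In the cascade itself, MAP2K1, which encodes MEK1, was at 30.8, 43.1 and 55.9 TPM with vehicle and 61.7 and 62.6 TPM with decitabine in parental cells. Decitabine replicates 1 and 2 were above all vehicle libraries, as for 27.9% of all features (log2 difference 0.55, SE 0.28, limma adjusted p = 0.372). Parental decitabine replicate 3, at 52.9 TPM, lay within the vehicle range. In resistant cells it was at 35.3 to 60.5 TPM (log2 difference -0.08, SE 0.25, limma adjusted p = 0.9). Among ERK output genes, MYC was at 340.1, 324 and 411 TPM with vehicle and 199 and 227 TPM with decitabine in parental cells. These treated libraries were below all untreated ones, as for 11.6% of all features (log2 difference -0.74, SE 0.14, limma adjusted p = 0.0952). In resistant cells MYC was at 286, 379.8 and 339.5 TPM with vehicle and 231, 303 and 220.5 TPM with decitabine (log2 difference -0.42, SE 0.18, limma adjusted p = 0.267). DUSP6, a phosphatase that acts on ERK, was at 0.106, 0.330 and 0.215 TPM in resistant vehicle libraries and 2.90, 5.17 and 2.13 TPM with decitabine. All treated libraries were above all untreated ones, as for 19.8% of all features, and the difference of 1.80 (SE 0.39, limma adjusted p = 0.0727) did not pass the threshold.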

How the data were processed

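The headers of the deposited tables, 1 for each line, name no unit. The authors' values were taken as TPM, because every library sums to 1000000. HISAT2, StringTie, DESeq2 and build hg38 are named in the submitters' processing notes. Tool versions and how strand was handled are not given in the sources. TPM keep no depth, and no counting interval is printed. Names occurring once (59490 of 60656 features) were used. In the parental table the identifiers beside the 9 genes belong to other genes. Of the parental identifiers found in the annotation, 50.6% belong to their name. The RASA4B row carries the identifier of RASA4 and the RASA4CP row that of RASA4B, so the identity of these rows is uncertain. Resistant columns were matched to groups only and lettered. TPM were tested with limma 3.58.1 (trend, R 4.3.3) on log2(TPM + 1), a scale that understates changes of low values, over features averaging 1 TPM or more, at a Benjamini-Hochberg adjusted p of 0.05, and the script was tested on simulated data. Genes and lists were chosen with earlier results of these data known. Named were all members, their overlapping features and copies, the 5 most and 3 least correlated genes, and per list those called or up to 4 of highest mean, some of which are not reported here. Sequences are from GENCODE 29 transcripts. Alternatives were pseudocount 0.1, no filter, 5 TPM, quantile and median-ratio scaling, no trend, summed copies, a replicate block, replicate 3 included, and each library left out.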

Additional observations from a re-analysis of the deposited data

Results flagged for a closer look

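In parental decitabine replicate 3, which entered no test, 4 of the 9 genes were listed above their highest value in the other 11 libraries by a wide margin. RASA3 was at 72.5 TPM there and at no more than 0.283 TPM elsewhere. RASAL1 was at 53.0 TPM against at most 2.59 TPM, RASAL3 at 30.5 TPM against at most 0.394 TPM, and RASA2 at 5.59 TPM against at most 0.235 TPM. The same library held 89.4% of its TPM in protein-coding features against at most 32.2% in the others, and the part of that difference in these values was not tested.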

How the results depend on the processing

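Depth is unknown, so nothing is said of genes listed at 0 beyond that entry. The parental log2 difference of RASA4 (-4.01) was -4.16 with a pseudocount of 0.1, -4.22 with quantile and -4.17 with median-ratio scaling, -3.34 for RASA4 and RASA4B summed, -2.07 for 4 copies summed, and -3.62 with replicate 3 included, with or without the replicate block. It ranged from -4.10 to -3.91 when each library was left out, and with the replicate block without replicate 3 it was -4.03. RASA4 was chosen from this parental contrast, and 78.4% of the distinct 100-base runs of RASA4B occur in RASA4. Counts of members past the threshold there are therefore only a description, and nothing is read from them. They were 2, and 1 with no filter, with either sum and without any 1 vehicle replicate. They were 0 with replicate 3, and 0 with the replicate block with or without it. Leaving out decitabine replicate 1 or 2 leaves 1 library in that group, so no count is given. Of all features 151 of 8122 passed, 35 of 17346 with no filter, and 14 to 47 without a vehicle replicate. With the sums 150 of 8121 and 145 of 8119 passed, and 0 with replicate 3 or the block. Same-numbered parental libraries deviated from their group means with r of -0.00 to 0.02 over 13778 features. The decitabine mean in that check included the unlike replicate 3, which can mask a shared deviation. Whether the numbers pair the samples is therefore not settled. The resistant difference of RASA4 (-2.74) was -1.51 for 4 copies summed, and -3.69 to -2.26 when each library was left out. Members called there (0) numbered 1 for 4 copies summed and 0 to 1 when each library was left out, with 1 only without decitabine c.

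Signs turned only for differences that passed no threshold. For decitabine in resistant cells RASA1 (0.18) was -0.10 with quantile scaling and ranged from -0.018 to 0.295 when each library was left out, and RASAL1 (-0.11) from -0.345 to 0.064. Between the lines under decitabine NF1 (0.02) was -0.043 with quantile and -0.078 with median-ratio scaling and ranged from -0.044 to 0.075 when each library was left out. RASAL1 (0.29) was -1.26 with replicate 3 and ranged from -0.086 to 0.664, and RASA4CP (-0.25) was 0.25 with replicate 3. For the difference of responses NF1 (-0.69) was 0.058 with replicate 3, RASAL1 (-0.08) ranged from -0.45 to 0.30 and RASA4DP (-0.38) from -1.91 to 0.42 when each library was left out. The cause was not tested. Quantile scaling moved the median over all features from 0.21 to -0.03 in parental and to -0.06 in resistant cells.

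Counts over all features moved more. For decitabine in parental cells 151 became 35 with no filter, 14 to 264 when each library was left out, and 0 with replicate 3 or the block. In resistant cells 308 became 73 with no filter, 194 at 5 TPM, 196 with quantile scaling and 90 to 197 when each library was left out. Between the lines, 217 under vehicle became 68 with no filter and 58 to 191, and 75 under decitabine became 21, 50 at 5 TPM, 0 with replicate 3 and 0 to 17. The 31 differences of responses became 7, 1 with replicate 3 and 12 to 47.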
